A study of Homo sapiens with 2 samples.

Results

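Collagen genes were examined in REH cells, an acute lymphoblastic leukaemia line of human B-cell precursors (REH-R in the labels). A gene was counted as a collagen when its Entrez number maps to a symbol of the form COL, number, A, number, and 44 of the 25702 features in the count table met this rule. The 2 libraries came from cells carrying a doxycycline-inducible (tet-regulated) cassette, either PAX5-IRES-GFP or, as the control, IRES-GFP alone. PAX5 is a transcription factor required for B-lineage commitment, IRES is an internal ribosome entry site and GFP is green fluorescent protein. Both cultures received 1 µg/mL doxycycline for 3 days and were sorted for GFP-positive cells, so the control shares the drug, the reporter and the sort. The cassette adds to the PAX5 gene that the line already transcribes, and the labels do not say whether either culture was a single clone.

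Collagens are secreted or membrane-bound proteins built from 3 alpha chains wound into a triple helix. Fibrillar collagens form the cables of connective tissue, collagen IV forms the mesh of basement membranes, collagen VI forms beaded filaments, and the transmembrane collagens stay anchored in the cell surface. Many collagen types need chains from more than 1 gene, and mesenchymal cells rather than lymphoid cells are their main source in the bone marrow.

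Each group had 1 library, so differences lack a replicate check and none was tested. Total counts were 11944765 (PAX5) and 10997864 (control). Pairs of counts are written with the PAX5 library first and the control library after it. PAX5 itself had 8319 against 2660 counts, a ratio of 2.91 (2.78 to 3.04). Ratios are the PAX5 library over the control library after scaling, with an exact 95% counting interval that does not cover variation between cultures. Genes with 10 or more summed counts were called where that whole interval lay at or past 2-fold. By this rule 1.34% of 13532 features were higher and 0.0517% were lower. The cells carried B-precursor transcripts, with all 10 of the marker genes listed for that type measured, such as RAG1 (32494 against 32110 counts).

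Of the 44 collagen genes, 17 had at least 10 summed counts, 11 had 1 to 3 counts and 16 had 0 counts in both libraries. The 3 called higher were COL6A1, COL6A2 and COL23A1, and 0 were called lower. COL5A1 and COL27A1, the most abundant members, were each close to 2-fold higher without passing the rule. All 3 called genes reached the minimum of 10 counts only through the PAX5 library, where they were high. The share of 3 among 17 is therefore no evidence about the family beside the 1.34% of all features. Counting intervals lay above 0 for 6 members, below 0 for 1 and across 0 for 10, where 18.7% and 16.8% of all 13532 features lay above and below. Of those 6, the 3 called genes and COL5A2 reached 10 counts only through the PAX5 library. The share of 6 among 17 is thus no evidence about the family either.

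**Figure D1:**
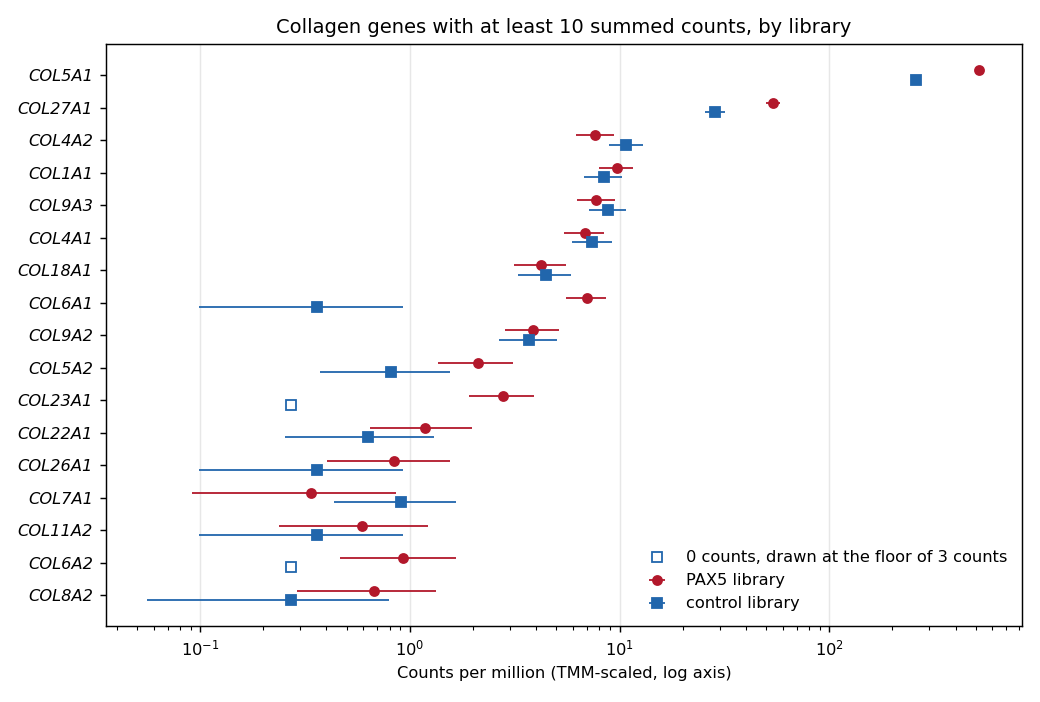
Scaled CPM (counts per 1000000, log axis) of the 17 collagen genes with at least 10 summed counts, in the PAX5 library (circles) and the control library (squares), with exact 95% Poisson intervals for counting error. COL5A1 stands at 515 against 259 CPM, and the open squares of COL23A1 and COL6A2 mark 0 control counts, drawn at the floor of 3 counts (0.272 CPM).

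Of the 11 fibrillar collagens, 5 were measured (at least 10 summed counts), 3 had intervals above 0 and none was called. COL5A1, which encodes the alpha 1 chain of collagen V, a regulator of fibril diameter, had 6121 counts in the PAX5 library against 2863 in the control library. Those counts are 515 and 259 CPM (counts per 1000000 after scaling), a ratio of 1.99 (1.90 to 2.08). The control cells therefore already held this transcript at a substantial level. Per length, COL5A1 stood at 61.0 RPKM (reads per kilobase and 1000000 counts) against 30.7, above 94.98% of all features in the PAX5 library, and above 88.9% in the control. In bulk RNA of sorted cells, a change in the number of cells with a transcript and a change in its amount per cell cannot be told apart.

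COL27A1, a fibrillar collagen best known from cartilage, had 643 against 315 counts, a ratio of 1.90 (1.66 to 2.18). Its level was 9.69 against 5.11 RPKM. The ratio for COL5A1 was 1.05 times that for COL27A1, with an interval of 0.906 to 1.21 that includes 1. Only 2 collagen genes had at least 500 summed counts. Among 7567 features at that depth, 65 (0.859%) had a ratio at or above that of COL5A1 and 82 (1.08%) at or above that of COL27A1.

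COL5A2, the usual partner chain of COL5A1, had 25 against 9 counts (log2 ratio 1.37, 0.22 to 2.65). Its level per length was 0.303 against 0.118 RPKM, so COL5A1 exceeded it 201-fold (136 to 311) in the PAX5 library against 261-fold (137 to 572) in the control library. COL5A3, another chain gene of this type, had 0 counts in both. COL1A1, the alpha 1 chain of collagen I, had 115 against 93 counts (log2 ratio 0.20, -0.21 to 0.61). Its partner COL1A2 had 0 against 1 count, and COL3A1 and COL2A1 had 0 in both, so of these major connective tissue collagens COL1A1 alone was measured. COL11A2, a cartilage collagen chain, had 7 against 4 counts.

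The promoter windows of the 2 abundant fibrillar genes are shown because these genes had similar ratios. Each is the 250 bases before a RefSeq transcript start, 5′ to 3′ on the strand of the gene, in build GRCh38.p14, whereas the counts were made on hg19. Capitals mark GC boxes (GGGCGG or its reverse complement CCGCCC), the sites bound by SP1-type factors, and TATA boxes (TATAAA or TTTATA).
COL5A1, chr9:134641553-134641802, plus strand: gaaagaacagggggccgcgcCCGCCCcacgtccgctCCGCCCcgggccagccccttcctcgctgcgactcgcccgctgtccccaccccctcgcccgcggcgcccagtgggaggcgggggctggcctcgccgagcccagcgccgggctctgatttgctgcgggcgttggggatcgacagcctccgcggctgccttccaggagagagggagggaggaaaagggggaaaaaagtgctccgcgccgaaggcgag
COL27A1, chr9:114155287-114155536, plus strand: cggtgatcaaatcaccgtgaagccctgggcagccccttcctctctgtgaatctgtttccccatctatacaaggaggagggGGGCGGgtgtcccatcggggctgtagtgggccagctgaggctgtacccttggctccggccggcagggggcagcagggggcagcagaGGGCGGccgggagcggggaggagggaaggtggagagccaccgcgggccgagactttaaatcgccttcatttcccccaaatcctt
Each window holds 2 GC boxes and 0 TATA boxes, in a GC content of 74.0% for COL5A1 and 64.4% for COL27A1. The core of the known PAX5 binding sequence, searched as GCGTGAC and its reverse complement GTCACGC, is in neither.

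Both measured collagen VI genes were called higher. COL6A1, the alpha 1 chain, had 83 counts in the PAX5 library against 4 in the control library, a ratio of 19.3 (7.25 to 72.4). COL6A2, the alpha 2 chain, had 11 against 0 counts. With the control set to a floor of 3 counts its ratio was 3.41, and its interval began at 2.33-fold. Both were nearly silent in the control library and low in the PAX5 library, at 1.65 RPKM for COL6A1 and 0.213 RPKM for COL6A2. COL6A3, the large chain that completes the classical collagen VI trimer, had 1 count in each library. COL6A5 had 0 counts in both and COL6A6 had 1 against 0. Within the PAX5 library the level of COL6A1 per length was 7.75 times that of COL6A2 (4.12 to 16.1), so the chains were not at equal transcript levels.

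COL6A1 and COL6A2 are neighbours, with no other protein-coding gene of the table between them in the RefSeq order. The next protein-coding genes on the outer sides were PCBP3 and FTCD, each with 2 against 0 counts, too few to give a direction. COL18A1, a collagen gene set apart from COL6A1 by SLC19A1 and PCBP3, had 50 against 49 counts.

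The COL6A2 window is shown because this gene was called higher from 0 control counts.
COL6A2, chr21:46097862-46098111, plus strand: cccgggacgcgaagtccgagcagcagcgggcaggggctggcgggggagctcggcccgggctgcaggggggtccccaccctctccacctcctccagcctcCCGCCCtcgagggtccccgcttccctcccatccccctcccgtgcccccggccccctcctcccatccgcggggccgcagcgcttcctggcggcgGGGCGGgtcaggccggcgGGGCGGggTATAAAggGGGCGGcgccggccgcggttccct
It holds 4 GC boxes and 1 TATA box, in a GC content of 79.6%. A TATA box occurs in 10.7% of the 35116 RefSeq windows of this length. The 32 collagen genes that matched the table have 44 windows, and 8 of these, in 7 genes, hold a TATA box.

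**Figure D2:**
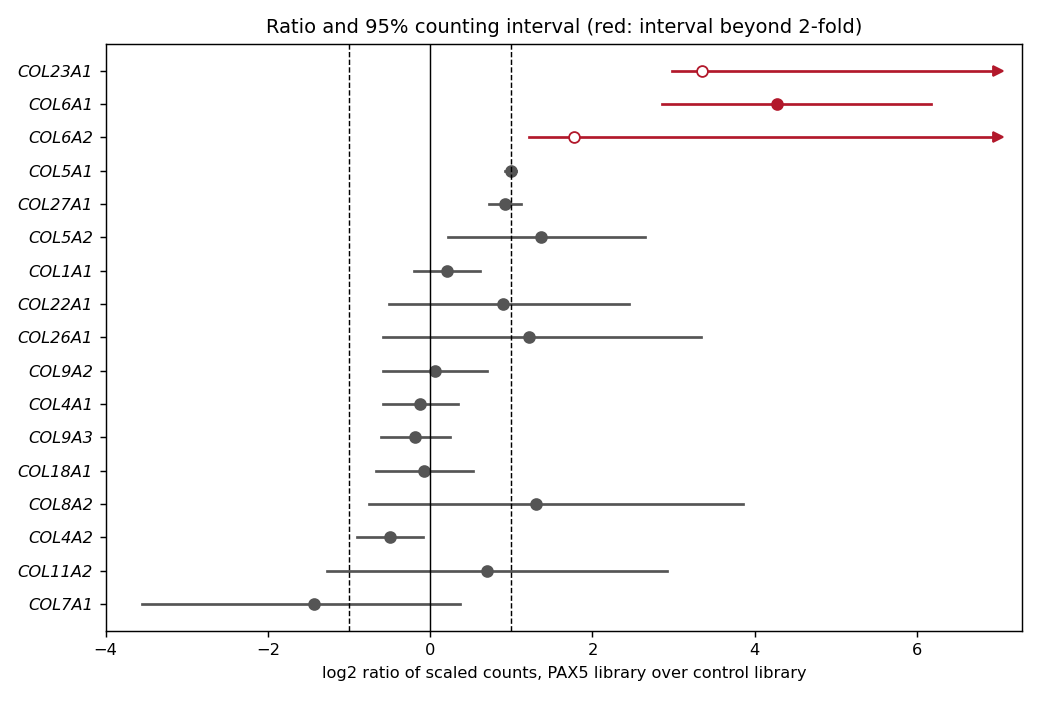
Log2 ratio of the PAX5 library over the control library (points) with the exact 95% counting interval (lines) for the 17 measured collagen genes; open points set 0 control counts to 3, arrows mark intervals without an upper end, and dashed lines mark 2-fold. The intervals of COL23A1, COL6A1 and COL6A2 lie wholly beyond 2-fold, while those of COL5A1 and COL27A1 are narrow and include it.

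Of the 4 transmembrane collagens only COL23A1 was measured. COL23A1, a membrane-anchored collagen whose ectodomain can be shed, had 33 counts in the PAX5 library against 0 in the control library. Over the same floor its ratio was 10.2, its interval began at 7.86-fold, and it reached 0.906 RPKM. The flanking protein-coding genes PHYKPL (288 against 273 counts, log2 ratio -0.03, interval -0.27 to 0.22) and CLK4 (146 against 133 counts, 0.03, -0.32 to 0.38) had intervals that include 0. COL13A1 had 2 against 1 counts, COL25A1 0 against 1, and COL17A1, the hemidesmosome collagen of skin, 0 in both.

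The COL23A1 window is shown because this gene had 0 control counts and was called higher.
COL23A1, chr5:178590394-178590643, minus strand: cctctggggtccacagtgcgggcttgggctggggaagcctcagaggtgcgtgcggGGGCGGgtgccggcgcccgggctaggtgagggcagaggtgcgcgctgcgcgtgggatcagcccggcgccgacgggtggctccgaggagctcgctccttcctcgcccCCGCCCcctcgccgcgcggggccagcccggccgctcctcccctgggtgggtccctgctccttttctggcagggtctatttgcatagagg
It holds 2 GC boxes and 0 TATA boxes, in a GC content of 74.4%. Over all 44 windows of the 32 matched collagen genes, 24 hold a GC box, in 21 genes, beside 42.6% of all 35116 windows. The PAX5 core is in 0 of the 44 windows and in 2.20% of all windows. These are letter matches in a short stretch and say nothing of binding there or elsewhere.

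Collagen IV, the basement membrane type, had no call. COL4A1 had 81 against 82 counts (log2 ratio -0.12, -0.58 to 0.34). COL4A2 had 91 against 119 counts (log2 ratio -0.49, -0.90 to -0.09), and was the 1 member whose interval lay below 0, without passing the rule. The sum over the 6 collagen IV genes was 173 against 203 counts, a ratio of 0.792 (0.643 to 0.975). COL4A3 had 1 count in each library, COL4A4 0 against 1, and COL4A5 and COL4A6 0 in both, so the chains present were those of the common trimer of COL4A1 and COL4A2.

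COL4A1 and COL4A2 are transcribed away from each other from starts with 126 bases between them, and this shared stretch is shown because both genes read out from it.
COL4A1-COL4A2, chr13:110307158-110307283, plus strand: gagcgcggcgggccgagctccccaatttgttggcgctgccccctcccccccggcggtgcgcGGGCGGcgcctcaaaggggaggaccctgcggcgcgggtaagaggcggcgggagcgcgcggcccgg
It holds 1 GC box, 0 TATA boxes and 0 PAX5 cores. The levels of the pair per length were 1.04 and 1.22 RPKM in the PAX5 library and 1.14 and 1.72 RPKM in the control library. Per length, COL4A1 was at 0.854 times COL4A2 (0.625 to 1.16) in the PAX5 library and 0.661 times (0.493 to 0.883) in the control library. The ratio for COL4A1 was 1.29 times that for COL4A2 (0.839 to 1.99), an interval that includes 1.

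**Figure D3:**
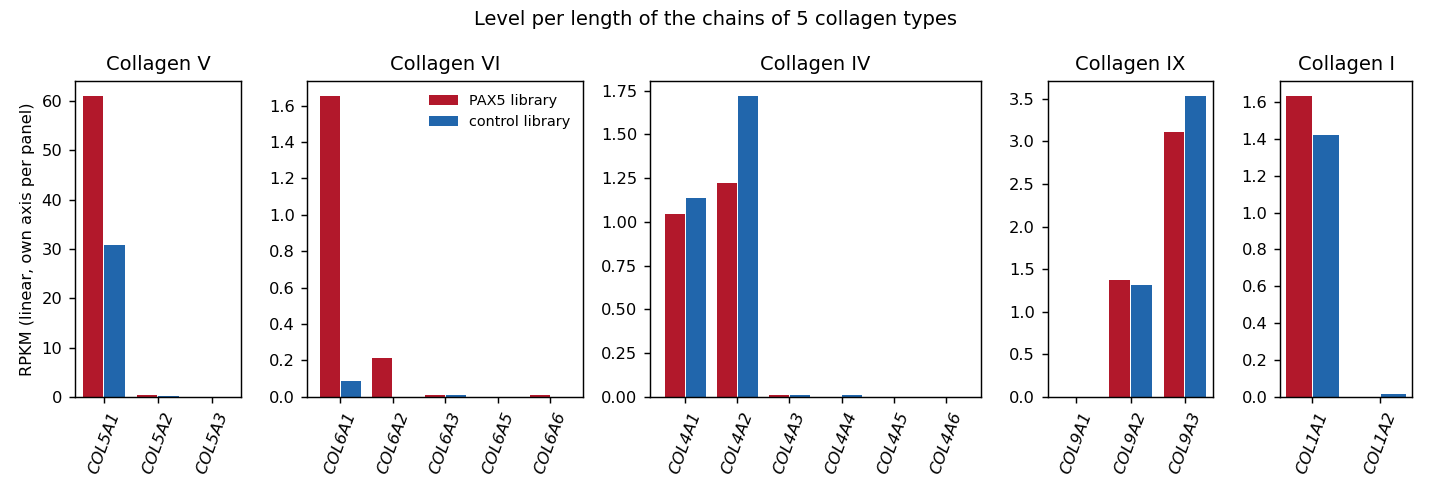
Level per length (RPKM, linear, a separate axis from 0 in each panel) of the chains of collagens V, VI, IV, IX and I in the PAX5 library (red) and the control library (blue). COL5A1 and COL6A1 each exceed their partner chains, and COL4A1 and COL4A2 lie between 1.04 and 1.72 RPKM, with COL4A1 the lower in the control library.

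The FACIT collagens, which attach to the surface of fibrils, were at similar levels in sum, 156 against 145 counts over 10 genes with a ratio of 1.00 (0.792 to 1.26). COL9A3 had 92 against 97 counts (log2 ratio -0.18, -0.61 to 0.24). COL9A2 had 46 against 41 counts (log2 ratio 0.06, -0.58 to 0.70). Both encode chains of collagen IX, whose other chain gene, COL9A1, had 0 counts in both libraries. COL22A1, a collagen of tissue junctions, had 14 against 7 counts (log2 ratio 0.89, -0.51 to 2.44).

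No remaining measured member was called. COL18A1, a basement membrane collagen that is the source of endostatin, had 50 against 49 counts (log2 ratio -0.08, -0.67 to 0.52). COL26A1 had 10 against 4 counts (log2 ratio 1.22, -0.58 to 3.34). COL7A1, the anchoring fibril collagen of skin, had 4 against 10 counts (log2 ratio -1.43, -3.55 to 0.37). COL8A2, a short-chain network collagen of the cornea, had 8 against 3 counts (log2 ratio 1.31, -0.75 to 3.86). The interval of each includes 0. The 11 genes with 1 to 3 summed counts had 14 counts in the PAX5 library against 6 in the control library together. The floor of 3 counts set for a count of 0 corresponds to 0.252 CPM (PAX5) and 0.272 CPM (control).

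Few genes carried the higher collagen sum of the PAX5 library. All members summed to 7448 against 3706 counts, a ratio of 1.87 (1.80 to 1.94). COL5A1 made up 82.2% (exact binomial interval 81.3 to 83.0) of these counts in the PAX5 library against 77.3% (75.9 to 78.6) in the control library. Without COL5A1 the ratio was 1.46 (1.34 to 1.60), and without COL27A1 as well 1.20 (1.07 to 1.35). Leaving out COL6A1, COL6A2 and COL23A1 too, a set chosen after the values were seen, left 39 genes with 557 against 524 counts and a ratio of 0.988 (0.875 to 1.12). The median log2 ratio was 0.89 over the 17 measured members and 0.06 over the 9 with at least 50 counts, beside -0.01 over all 13532 features and -0.01 over the 11535 with at least 50 counts. The first median therefore leans on weakly counted genes, several of them with intervals across 0.

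**Figure D4:**
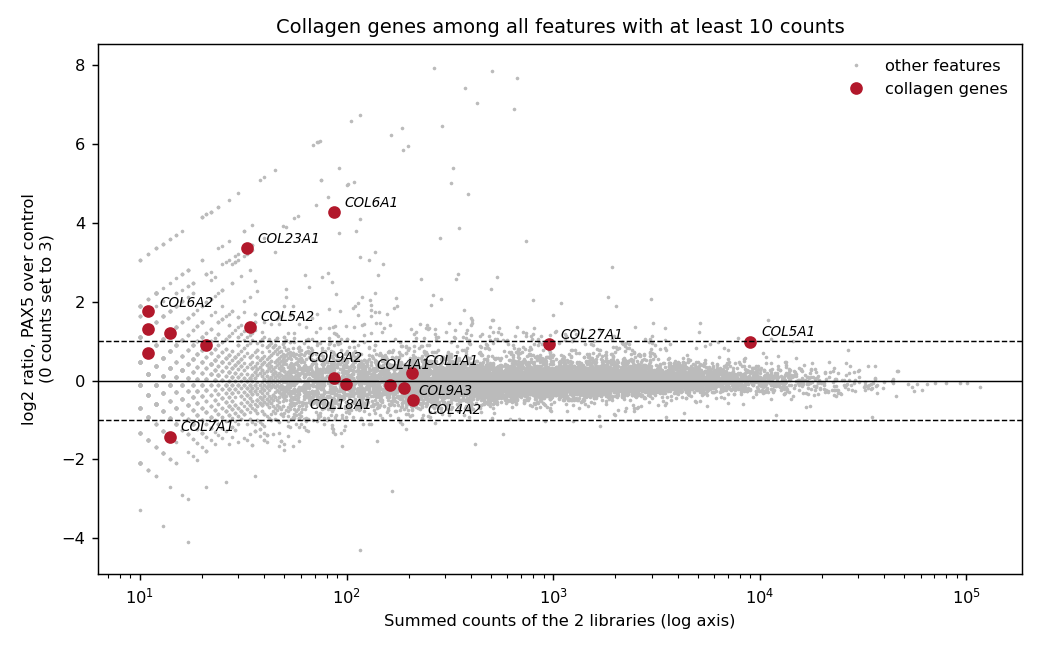
Log2 ratio (PAX5 over control, 0 counts set to 3) against summed counts (log axis) for all 13532 features with at least 10 counts; collagen genes are red, those with 30 or more counts and COL6A2 and COL7A1 are named, and dashed lines mark 2-fold. COL5A1 and COL27A1 lie at the upper edge of the abundant features, and COL6A1 and COL23A1 far above the features of similar depth that gather around 0.

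Collagen transcripts are long, with a median length of 5768.5 bases beside 2224 over all features, and longer features were higher in the PAX5 library in general. The median log2 ratio went from -0.21 in the shortest of 10 equal length groups to 0.19 in the longest. Of the 2706 features in the 2 longest groups, which hold 10 of the 17 measured members, 44.0% had intervals above 0 and 1.70% were called higher. Among the 6 members with intervals above 0, COL5A1, COL27A1 and COL5A2 lie in those groups and are to be read against that share. The called genes COL6A1, COL6A2 and COL23A1 lie in shorter length groups. When each member was set against the median of its own length group, COL5A1 had a log2 ratio of 0.80, COL27A1 0.82, COL6A1 4.21 and COL4A2 -0.59. The 3 calls were the same genes after this centring. Genes of the other lists were not centred on length. The part of length in the results was not otherwise tested.

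No gene of the collagen-modifying machinery was called. Of 18 genes for collagen modification and folding, 12 were measured and 0 were called, with 2 intervals above 0 and 3 below. The prolyl hydroxylase subunits P4HA1 (2119 against 1527 counts, log2 ratio 0.37, 0.27 to 0.46) and P4HA2 (829 against 625 counts, 0.30, 0.15 to 0.45) were the 2 above. The collagen chaperone SERPINH1, also called HSP47, had 569 against 682 counts (log2 ratio -0.37, -0.53 to -0.20). The prolyl isomerase PPIB (-0.30) and the galactosyltransferase COLGALT1 (-0.17) were also below 0, while P4HB had a log2 ratio of -0.04 and CRTAP of 0.05. PPIB is short, at 1028 bases, and its interval (-0.45 to -0.15) includes the median of -0.21 of the shortest length group. The list had a median of -0.10.

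Of 14 genes for procollagen export and processing, 9 were measured and 0 were called. SEC24D (832 against 616 counts, log2 ratio 0.33), KLHL12 (0.26) and SEC23A (0.12), which act in the transport vesicles that carry procollagen, had intervals above 0. PCOLCE, an enhancer of propeptide cleavage, had an interval below 0 (129 against 159 counts, -0.41, -0.75 to -0.06), and the propeptidase BMP1 had -0.26 (-0.60 to 0.09). The N-propeptidases ADAMTS3 and ADAMTS14 had 0 counts in both and ADAMTS2 had 1 against 0. Of 6 cross-linking genes 4 were measured and 0 were called, and LOXL4, a lysyl oxidase, had 208 against 275 counts (log2 ratio -0.51, -0.78 to -0.24).

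Of 13 collagen receptor genes 7 were measured and 0 were called. DDR1, a receptor tyrosine kinase activated by collagen, had 240 against 140 counts (log2 ratio 0.67, 0.37 to 0.98). CD93 had 170 against 277 counts (log2 ratio -0.81, -1.09 to -0.53). The inhibitory leukocyte receptor LAIR1 (888 against 862 counts, -0.06), the endocytic receptor MRC2 (0.02) and the integrin subunit ITGB1 (0.09) had intervals that include 0. The collagen-binding integrin subunit ITGA1 had 0 counts in both, ITGA2 had 5 against 4 and ITGA10 had 2 against 3. Of 15 genes for collagen degradation and its inhibitors 7 were measured and 0 were called, with TIMP1 (-0.41) and RECK (-0.35) below 0. TIMP1 is also short, at 916 bases, and its interval (-0.69 to -0.13) includes the median of -0.21 of the shortest length group. The collagenase genes MMP1, MMP8 and MMP13 had 0 counts in both libraries.

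Among matrix genes of other kinds, calls lay in the list that holds elastic fibre and proteoglycan genes. Of these 20 genes 9 were measured and 3 were called higher, beside 1.34% of all 13532 features. All 3 called genes reached the minimum of 10 counts only through the PAX5 library, so this share too is no evidence about the list. ELN, which encodes elastin, had 68 against 1 counts, a ratio of 63.2 (10.97 to 2532). FBLN2, the matrix glycoprotein fibulin 2, had 73 against 2 counts, a ratio of 33.9 (9.06 to 285). BGN, the proteoglycan biglycan, had 10 against 0 counts. Its ratio was 3.10 when the floor replaced the 0, and its interval began at 2.08-fold. FBN2, which encodes fibrillin 2, had 755 against 466 counts (log2 ratio 0.59, 0.42 to 0.76), EMILIN2 had 64 against 27 counts and 1.14 (0.47 to 1.85), and SPARC, a collagen-binding matrix protein, had 28 against 66 counts and -1.34 (-2.04 to -0.68). FN1, which encodes fibronectin, had 0 counts in both.

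Of 16 laminin, nidogen and basement membrane proteoglycan genes 7 were measured and 0 were called. NID2, a nidogen that links laminin to collagen IV, had 983 against 1484 counts (log2 ratio -0.70, -0.82 to -0.58), and the proteoglycan gene AGRN had -0.32 (-0.49 to -0.15). LAMC1 (1016 against 887 counts, 0.09) and HSPG2, which encodes perlecan (861 against 764 counts, 0.07), had intervals that include 0. The lists of matrix genes had medians of 0.63 (the matrix list with ELN) and 0.07 (the laminin list), and no difference between them was tested. The median of 0.63 is the value of TNXB (15 against 9 counts, interval -0.66 to 2.01). It is lifted by ELN, FBLN2 and BGN, which passed the minimum only through the PAX5 library. These medians are therefore no evidence of a difference between the lists.

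Of 9 fibroblast and mesenchymal marker genes 4 were measured and 0 were called. LUM, THY1, TWIST1 and PRRX1 had 0 counts in both libraries and DCN had 2 against 0. The list summed to 1780 against 2312 CPM, nearly all from VIM (20634 against 24952 counts), which leukaemia cells also express. PDGFRA had 22 against 8 counts (log2 ratio 1.35, 0.13 to 2.73) and ACTA2 had 34 against 24 (0.40, -0.40 to 1.21). PDGFRB had 473 against 563 counts (-0.36, -0.54 to -0.18), and VIM had a log2 ratio of -0.38 (-0.41 to -0.35). The list thus had 1 interval above 0 and 2 below. The part of these genes in the results was not tested. Of 7 endothelial genes 3 were measured and 0 were called. CDH5 and TEK had 0 counts in both, PECAM1 had 0 against 1 and KDR 1 against 0. VWF had 7 counts in each library and CLDN5 had 13 against 8. The 7 genes summed to 693 against 586 CPM, almost wholly from ERG (8220 against 6457 counts, log2 ratio 0.24, 0.20 to 0.29). ERG had the 1 interval above 0 in this list, and the sum says little of the other genes.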

How the data were processed

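The 2 RNA-seq libraries, 1 per group, were grouped by their genotype labels. The authors deposited raw read counts per Entrez gene. The submitters' processing notes name featureCounts and the build hg19 (GRCh37). Not given in the sources used here are the aligner, the strand setting and the handling of multi-mapped reads. The series table and the single files held the same 51404 values. Symbols came by Entrez number from RefSeq (GRCh38.p14), which named 23696 of 25702 features.

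Libraries were scaled by TMM on features with at least 10 counts (edgeR 4.0.16, R 4.3.3; factors 0.995 and 1.005), and DESeq2 1.42.0 served for an alternative scaling only. With no residual degrees of freedom no gene was tested. Ratios carry Clopper-Pearson 95% intervals conditional on the summed count (scipy 1.17.1). PCR copies are not separate molecules, so intervals and floors (3 counts for a count of 0) cover counting error only. RPKM was computed from scaled counts and the deposited gene lengths. The interval and the call rule were tested on simulated data.

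The members, lists and rule were chosen with earlier results of these data known. Every collagen gene with at least 10 counts is named with its values. Of the other lists, called genes, the most abundant and some further members chosen after their values were seen are named. Promoter windows were matched by Entrez number for 32 of 44 genes.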

Additional observations from a re-analysis of the deposited data

How the results depend on the processing

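The 3 genes called higher were the same under scaling by total counts, DESeq2 size factors or upper-quartile factors. These scalings shifted the median log2 ratio of all features by only -0.0134, 0.0142 and -0.0312, so they could move the calls little. The calls were also the same with an assumed biological coefficient of variation of 0.1 and after centring on length. They stayed the same without a count minimum and from the files of the single libraries, but neither of these checks could differ. Members under the minimum had at most 3 summed counts, and the single files hold the same values. COL6A1 and COL23A1 alone were called at a bound of 4-fold and with a coefficient of 0.2. The count became 1 with a minimum of 50 counts (COL6A1), 5 with a bound at 1.5-fold, which adds COL5A1 and COL27A1, and 6 by the point ratio at 2-fold, where 1 gene, COL7A1, was lower. The minimum of 50 counts moved the median log2 ratio from 0.894 to 0.0602. It left out weakly counted members, most of them with log2 ratios above 0. Of 85 member values under other scalings, length centring or files, 84 stayed within their counting interval, and COL5A1 went to 0.80 after centring. The values from the single files could not move, and those under other scalings moved only by the small shifts given above. Without a count minimum no median was computed. No paired analysis was possible because each group has 1 library, and for the same reason no library could be left out. Of the 17 measured members 8 had under 50 counts, and their ratios are limited by depth.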

Other observations

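Protein-coding genes next to a measured collagen gene in the RefSeq order were read out as values, chosen after they were seen. TMEM92, beside COL1A1, had 11 against 0 counts, a lower interval bound of 1.22 on the log2 scale, while COL1A1 had 115 against 93. IRS2, an insulin receptor substrate beside COL4A1, had 1926 against 1098 counts (log2 ratio 0.70, 0.60 to 0.81), while COL4A1 had -0.12. HLA-DPB1, an MHC class II gene beside COL11A2, had 2699 against 1778 counts (log2 ratio 0.50, 0.41 to 0.58). SLC19A1, which overlaps COL18A1 in RefSeq, had 550 against 714 counts and -0.48 (-0.65 to -0.32), and TCFL5, which overlaps COL9A3, had 766 against 612 and 0.22 (0.06 to 0.37). As the strand setting of the counting is not given, reads of the overlapping pairs may not be separable.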
